A study of Mus musculus with 9 samples.

Results

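The 10 genes described here encode junction proteins, receptors and other products of blood vessel endothelium, the cell layer that lines vessels. They are Pecam1, Cdh5, Esam, Cldn5, Kdr, Tek, Tie1, Emcn, Plvap and Egfl7, chosen by symbol from a table of 54532 genes. All 10 were found once each, and all 10 reached the mean of at least 0.5 FPKM over 9 libraries that was asked of a gene before testing, as did 14683 genes in all. The genes were put together after an earlier look at these data had shown endothelial markers higher in nanoparticle-treated than in untreated model mice. The group differences below are therefore given as descriptions of these genes and support nothing beyond their values.

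RNA of mouse duodenum was sequenced in 3 groups of 3 libraries. Control libraries came from wild-type mice, with gluten stimulation that was not enhanced. CeD libraries came from a delayed-type hypersensitivity (DTH) model of celiac disease, in which gluten in food provokes an immune attack on the small bowel, under enhanced gluten stimulation. CeD+GR libraries came from the same model under the same enhanced stimulation, after composite nanoparticles of gliadin, a gluten protein fraction, and rapamycin, an inhibitor of the mTOR kinase, had been administered. No group with particles of gliadin alone or rapamycin alone is among the 9 libraries, so the parts of the particle cannot be told apart. The sources used here do not state strain, sex, age or how many animals stand behind a library, so p-values measure spread between samples that may be technical. Each library is called by its group and replicate number.

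Endothelial cells hold together through VE-cadherin (Cdh5) in adherens junctions, claudin 5 (Cldn5) in tight junctions, and the immunoglobulin-type adhesion molecules Pecam1 and Esam. They read vascular growth factors through receptor tyrosine kinases, namely VEGF receptor 2 (Kdr) for VEGF and Tek (Tie2) with its partner Tie1 for angiopoietins. In the intestine the capillaries under the epithelium are fenestrated, and Plvap forms the diaphragms of these pores, while the sialomucin Emcn marks capillary and venous endothelium and the secreted protein Egfl7 is laid down by endothelial cells. Pecam1 and Esam are also found on platelets, and Pecam1 on leukocytes.

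Libraries held 15373260 to 16852104 reads assigned to genes, as recovered from the deposited values. Levels are FPKM, reads scaled by gene length and an effective library size, so that they can be set side by side between genes. That size was not the number of assigned reads. It was 18206426 beside 16185014 assigned reads in control 1, and 14641212 beside 16372119 in control 2. Epithelial markers were high throughout, at 2508 to 4892 FPKM summed. Enterocyte markers were less even, at 11713.2, 9726 and 7277.9 FPKM summed in control 1, CeD 1 and CeD+GR 3. They summed to between 21476.2 and 29038.5 FPKM in the other 6. The part of this difference in the endothelial levels was not tested. Transcripts of other tissues stood out in 3 libraries. Exocrine pancreas markers summed to 3950 FPKM in CeD 1 and to between 11.4 and 75.5 FPKM in the other 8. Gastric mucous cell markers summed to 139698 FPKM in CeD+GR 3 and to at most 50.5 FPKM elsewhere, and adipocyte markers to 396 FPKM in CeD+GR 2 and at most 104 FPKM elsewhere. The libraries with replicate number 1 of all 3 groups were high in Paneth cell markers, at 1000 to 1993 FPKM summed, against 69.9 to 165 FPKM in the other 6.

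The data show 1 common pattern and several departures from it. In control and CeD, the replicate 1 library was high and replicates 2 and 3 were low for most of the 10 genes. The mean over the 10 genes was high in all 3 CeD+GR libraries, but single genes departed from it. CeD+GR 2 lay below control 3 for Kdr, Tek and Plvap, and CeD+GR 1 lay below control 3 for Esam and Egfl7. The mean of log2(FPKM + 0.5) over the 10 genes was 2.18, 1.05 and 1.46 in control 1 to 3, and 2.10, 1.09 and 1.2 in CeD 1 to 3. It was 2.14, 2.15 and 2.32 in CeD+GR 1 to 3. The replicate 1 libraries of the 3 groups were thus alike in this mean, and CeD+GR stood above the other groups in replicates 2 and 3. In bulk tissue, a larger share of endothelial cells and more of these transcripts per cell cannot be told apart.

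**Figure D1:**
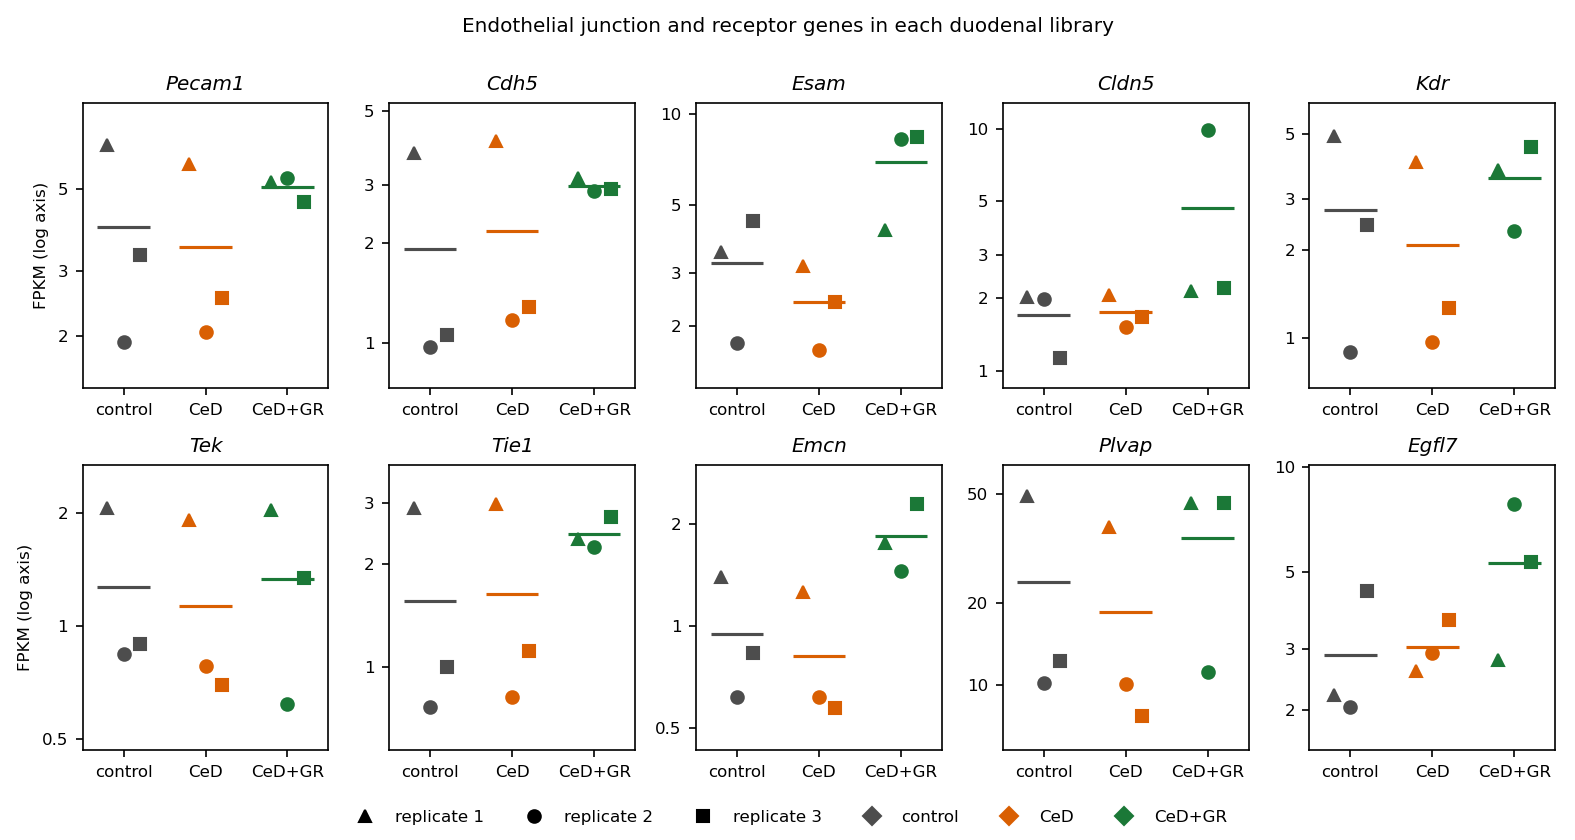
FPKM (log axis) of the 10 endothelial genes in control, CeD and CeD+GR, with 1 symbol per library, symbol shape for the replicate number and a horizontal line at the group mean. Triangles (replicate 1) are high in all groups for most genes, and circles and squares (replicates 2 and 3) are low in control and CeD; Cldn5 stands at 9.82 FPKM in CeD+GR 2 alone.

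Among the 4 adhesion and junction genes, Pecam1 and Cdh5 followed the common pattern. Pecam1 (ENSMUSG00000020717, mm10 chromosome 11, 106654217 to 106750628, minus strand) encodes an adhesion molecule of endothelial cell contacts. It stood at 6.55, 1.93 and 3.31 FPKM in control 1 to 3. The CeD libraries gave 5.84, 2.05 and 2.53 FPKM, and the CeD+GR libraries 5.23, 5.33 and 4.61 FPKM. All 3 CeD+GR libraries lay above replicates 2 and 3 of the other groups and below both of their replicate 1 libraries, so the groups overlap. The log2 fold change of CeD+GR against CeD was 0.60 (SE 0.44).

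Cdh5 (ENSMUSG00000031871, chromosome 8, 104101625 to 104144511, plus strand) encodes VE-cadherin, the cadherin of endothelial adherens junctions. Its levels were 3.74, 0.975 and 1.06 FPKM in control, 4.08, 1.17 and 1.28 FPKM in CeD, and 3.15, 2.87 and 2.91 FPKM in CeD+GR. CeD+GR was the tightest group, with a mean of 2.98 ± 0.151 FPKM (SD, n = 3), against 1.92 ± 1.57 FPKM in control and 2.18 ± 1.65 FPKM in CeD. The fold change against CeD was 0.54 (SE 0.49).

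Esam (ENSMUSG00000001946, chromosome 9, 37528078 to 37538319, plus strand) encodes an adhesion molecule at endothelial tight junctions. It stood at 3.53, 1.76 and 4.45 FPKM in control, at 3.15, 1.67 and 2.41 FPKM in CeD, and at 4.17, 8.26 and 8.36 FPKM in CeD+GR. Every CeD+GR library lay above every CeD library, while control 3 lay above CeD+GR 1. In control the high library was replicate 3, whereas for Pecam1 and Cdh5 it was replicate 1. Its log2 fold change against CeD, 1.32 (SE 0.38), was the highest of the 10, and it ranged from 1.13 without CeD 2 to 1.63 without CeD+GR 1.

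Cldn5 (ENSMUSG00000041378, chromosome 16, 18776847 to 18778262, plus strand), a gene of 1 exon, encodes the claudin of endothelial tight junctions. Its levels were 2.02, 1.98 and 1.13 FPKM in control, 2.06, 1.52 and 1.67 FPKM in CeD, and 2.14, 9.82 and 2.20 FPKM in CeD+GR. CeD+GR 2 alone was high, and the other 2 CeD+GR libraries exceeded the highest CeD library by little, so the groups do not overlap but the mean of 4.72 ± 4.41 FPKM (SD, n = 3) rests on 1 library. Without CeD+GR 2 the log2 fold change against CeD went from 0.91 (SE 0.50) to 0.26. Adipocyte markers were at their highest in that same library: all 7 listed markers peaked there, with Adipoq at 26.6 FPKM and at most 1.51 FPKM elsewhere. Their part in the Cldn5 value was not tested.

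The 3 receptor genes differed in how CeD+GR 2 behaved. Kdr (ENSMUSG00000062960, chromosome 5, 75932827 to 75978458, minus strand), the main signalling receptor for VEGF-A, stood at 4.90, 0.900 and 2.44 FPKM in control and at 4.01, 0.968 and 1.27 FPKM in CeD. It stood at 3.77, 2.33 and 4.48 FPKM in CeD+GR. CeD+GR 2 lay just below control 3, and CeD 1 lay within the range of CeD+GR. The fold change against CeD was 0.79 (SE 0.56).

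Tie1 (ENSMUSG00000033191, chromosome 4, 118471191 to 118490061, minus strand) encodes an orphan receptor that pairs with Tek. It stood at 2.89, 0.764 and 1.0 FPKM in control, at 2.98, 0.819 and 1.11 FPKM in CeD, and at 2.36, 2.23 and 2.72 FPKM in CeD+GR. The pattern was that of Cdh5, with 3 similar CeD+GR libraries and 1 high library in each of the other groups, and a fold change against CeD of 0.59 (SE 0.46).

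Tek (ENSMUSG00000006386, chromosome 4, 94739289 to 94874976, plus strand), the angiopoietin receptor Tie2, gave the smallest difference. Its levels were 2.06, 0.841 and 0.893 FPKM in control, 1.92, 0.781 and 0.695 FPKM in CeD, and 2.03, 0.620 and 1.34 FPKM in CeD+GR. CeD+GR 2 was the lowest of all 9 libraries for Tek, although it was high for Esam, Cldn5 and Egfl7. The log2 fold change against CeD was 0.16 (SE 0.43), and without CeD+GR 1 it turned to -0.11.

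Emcn (ENSMUSG00000054690, chromosome 3, 137341067 to 137432185, plus strand), the sialomucin endomucin, was with Cldn5 one of the genes in which every CeD+GR library lay above every library of both other groups. It stood at 1.39, 0.619 and 0.833 FPKM in control, at 1.25, 0.616 and 0.572 FPKM in CeD, and at 1.75, 1.46 and 2.30 FPKM in CeD+GR. The lowest CeD+GR library exceeded the highest control library by a small margin, 1.46 against 1.39 FPKM. The fold change against CeD was 0.85 (SE 0.32), between 0.71 without CeD+GR 3 and 1.08 without CeD 1, and against control it was 0.71 (SE 0.32). The fewest reads behind a value of Emcn were 48, in CeD 2.

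Plvap (ENSMUSG00000034845, chromosome 8, 71497765 to 71511752, minus strand), the diaphragm protein of fenestrated capillaries, was the most abundant of the 10. It stood at 49.2, 10.2 and 12.2 FPKM in control, at 37.8, 10.1 and 7.70 FPKM in CeD, and at 46.2, 11.2 and 46.2 FPKM in CeD+GR. The 9 libraries fell into 4 high ones, the replicate 1 libraries and CeD+GR 3, and 5 low ones, with no value between 12.2 and 37.8 FPKM. CeD+GR 2 was among the low ones, which set Plvap apart from Pecam1, Cdh5 and Tie1. The fold change against CeD was 0.98 (SE 0.82), ranging from 0.54 without CeD 3 to 1.66 without CeD 1.

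Egfl7 (ENSMUSG00000026921, chromosome 2, 26580014 to 26593120, plus strand) encodes a secreted protein of endothelial cells. It stood at 2.21, 2.04 and 4.40 FPKM in control, at 2.58, 2.93 and 3.63 FPKM in CeD, and at 2.79, 7.82 and 5.33 FPKM in CeD+GR. Replicate 1 was the lowest library in CeD and in CeD+GR, and all 3 groups overlapped. The fold change against CeD was 0.62 (SE 0.38), and 0.32 without CeD+GR 2.

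Egfl7 is also the host of miR-126, a microRNA known for its abundance in endothelium. Its sequence is shown here because the transcript that carries it is one of the genes that departed from the common pattern, with the seed (bases 2 to 8) in capitals and from RefSeq (GRCm38.p6, chromosome 2, 26591402 to 26591423, plus strand).
mmu-miR-126a-3p: uCGUACCGugaguaauaaugcg
The rows Mir126a and Mir126b are listed at 0 in every library. These libraries were not made for small RNA, and the mature microRNA was not measured. The 3′ end of Egfl7 overlaps Agpat2 on the opposite strand from 26593057 to 26593120, and Agpat2, a lipid synthesis gene, stood at 70.2 to 111 FPKM. Whether the counting used strand is not stated, and a share of Egfl7 reads from Agpat2 was not tested. Plvap likewise overlaps Gtpbp3, which stood at 2.04 to 3.63 FPKM, from 71497765 to 71499583.

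**Figure D2:**
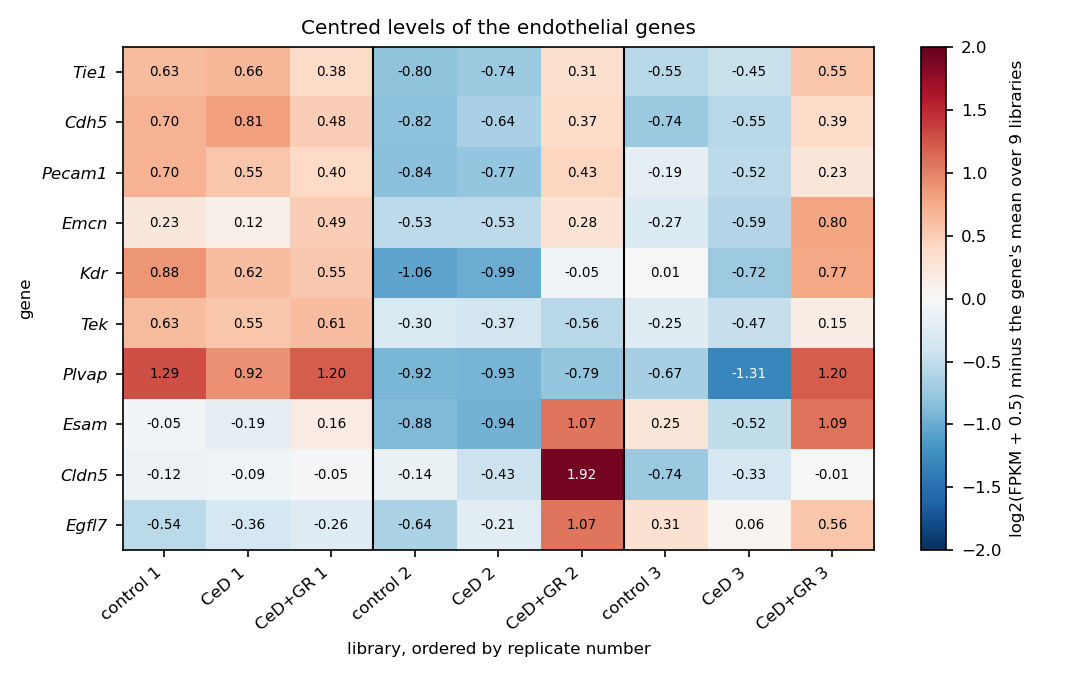
Level of each gene (rows) in each library (columns, ordered by replicate number) as log2(FPKM + 0.5) minus the gene's mean over the 9 libraries; red is above that mean and blue below. The 3 replicate 1 columns are red for 7 genes, and CeD+GR 2 ranges from -0.79 for Plvap to 1.92 for Cldn5.

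Set in order by the mean over 9 libraries, Plvap led at 25.7 ± 18.5 FPKM (SD, n = 9). Esam at 4.19 ± 2.52, Pecam1 at 4.15 ± 1.73 and Egfl7 at 3.75 ± 1.86 FPKM followed. Kdr at 2.78 ± 1.55, Cldn5 at 2.73 ± 2.68, Cdh5 at 2.36 ± 1.24 and Tie1 at 1.88 ± 0.938 FPKM came next. Tek at 1.24 ± 0.606 and Emcn at 1.2 ± 0.594 FPKM were lowest. After Plvap, each gene differed from its neighbour in this order by less than the SD of either, except Tie1 and Tek, whose difference was a little over the SD of Tek. Among the tested genes these means ranged from the percentile 19.9 for Emcn to 86.2 for Plvap. A value rested on 27 reads (Cldn5, control 3) to 1779 reads (Plvap, control 1) in these data. Counting error alone was therefore at most 19.2% of a level (1 SD).

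Likeness between the genes was measured as the mean absolute difference of their centred log2 levels over the 9 libraries, which share their depth and tissue makeup. Cdh5 and Tie1 were the closest pair at 0.11, followed by Pecam1 and Tie1 at 0.13. Plvap and Egfl7 were the farthest apart at 1.16. Emcn, Kdr and Tek were nearest to Tie1, Pecam1 and Pecam1, at 0.25, 0.25 and 0.27. Esam and Egfl7 were each other's nearest gene at 0.36, and Cldn5 was nearest to Egfl7 at 0.50.

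Ratios of FPKM within a library show the same departures without any scaling between libraries. Cdh5 over Pecam1 was steady, from 0.319 in control 3 to 0.699 in CeD 1. Egfl7 over Pecam1 was 0.337, 0.442 and 0.535 in the replicate 1 libraries of control, CeD and CeD+GR and 1.06 to 1.47 in the other 6, with no overlap. Plvap over Pecam1 was 7.50, 6.48 and 8.84 in the replicate 1 libraries, higher still in CeD+GR 3, and lowest in CeD+GR 2 at 2.10. Cldn5 over Cdh5 reached 3.42 in CeD+GR 2, against 0.504 to 2.03 in the others. Tek over Tie1 was lowest in CeD+GR 2 and CeD+GR 3, at 0.277 and 0.491, and ran from 0.626 to 1.10 in the other 7 libraries. The endothelial transcripts thus varied in unequal proportion. CeD+GR 2 and CeD+GR 3 were both high in Esam, while Cldn5 was higher in CeD+GR 2, and Plvap, Kdr and Tek were higher in CeD+GR 3.

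**Figure D3:**
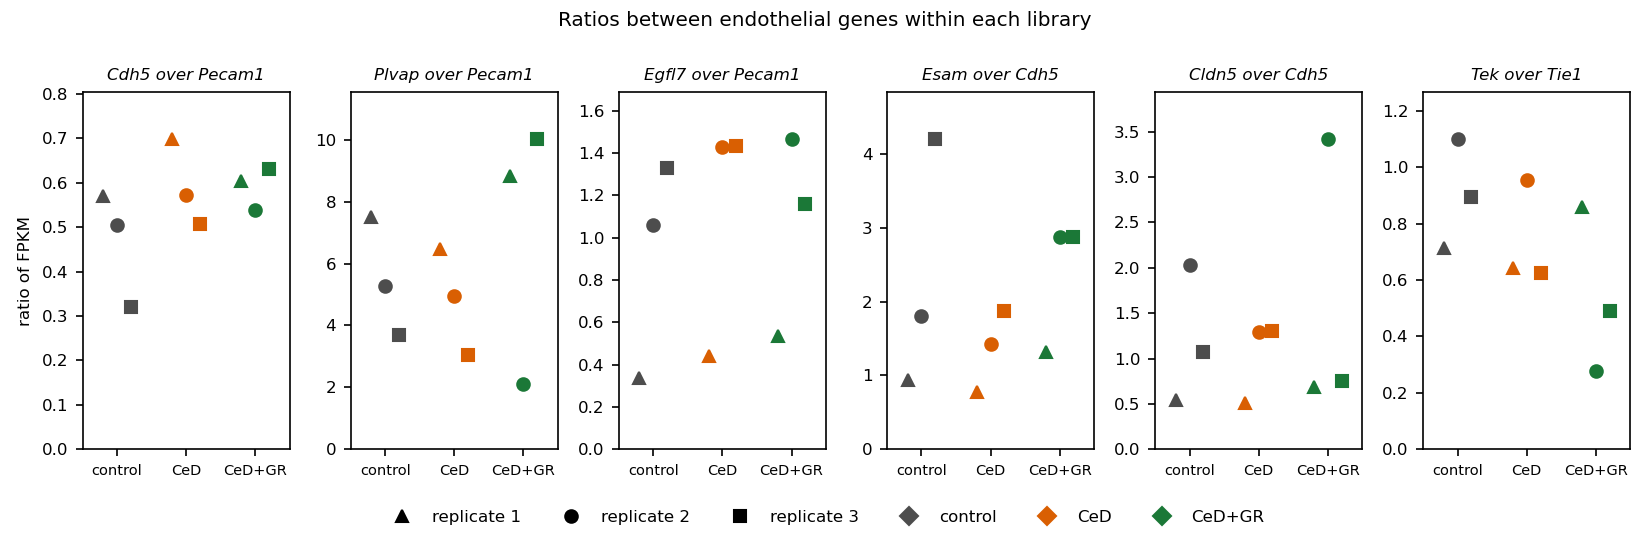
Ratio of the FPKM of 2 endothelial genes within each library (linear axes from 0), with symbol shape for the replicate number and colour for the group. Egfl7 over Pecam1 is below 0.54 in the 3 replicate 1 libraries, and Cldn5 over Cdh5 is 3.42 in CeD+GR 2.

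The comparison of CeD+GR with CeD asks how particle-treated model mice differ from untreated ones. All 10 genes had a positive log2 fold change, from 0.16 to 1.32, with a median of 0.71 (limma, all 14683 genes fitted together; median of all tested genes 0.01, and 51.1% of them positive). None of the 10 passed an adjusted p of 0.05 (limma, adjusted p = 1 for each), as for 0% of all tested genes. At an unadjusted p under 0.05 there were 2, Esam and Emcn, beside 2.89% of all tested genes in either direction, and limma-voom on recovered reads had 2, beside 2.6%. In Esam, Cldn5 and Emcn the groups did not overlap, 3 of 10 genes, beside 3.01% of tested genes that were higher without overlap. As this comparison is the one through which the genes were picked, nothing is read from these counts. With 1 library left out the median stayed between 0.54 and 1.01.

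Split by replicate number, which was not taken to pair the libraries, the difference between CeD+GR and CeD was larger in replicates 2 and 3. CeD+GR 2 and CeD+GR 3 are also the libraries with adipocyte and gastric mucous cell transcripts, at 396 and 139698 FPKM summed. The part of these transcripts in the split was not tested. CeD+GR 1 over CeD 1 gave ratios of 0.771 for Cdh5 to 1.40 for Emcn, with 6 of 10 above 1 and 1 library on each side. The mean of CeD+GR 2 and 3 over the mean of CeD 2 and 3 was above 1 for all 10, from 1.33 for Tek to 4.07 for Esam, with a median of 2.81. The median log2 fold change was 1.06 with replicates 2 and 3 only, and 0 of 10 genes passed (limma; 5 at an unadjusted p under 0.05, beside 5.51% of all tested genes in that fit). In 7 genes, Pecam1, Cdh5, Esam, Cldn5, Tie1, Emcn and Egfl7, both CeD+GR 2 and CeD+GR 3 lay above all of replicates 2 and 3 of control and CeD, beside 9.09% of tested genes. In 8 genes, all but Esam and Egfl7, the 3 replicate 1 libraries lay above those same 4 libraries, beside 19.5% of tested genes. Both held in 5 genes, Pecam1, Cdh5, Cldn5, Tie1 and Emcn, beside 2.47% of tested genes. This grouping was chosen after the values were seen.

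**Figure D4:**
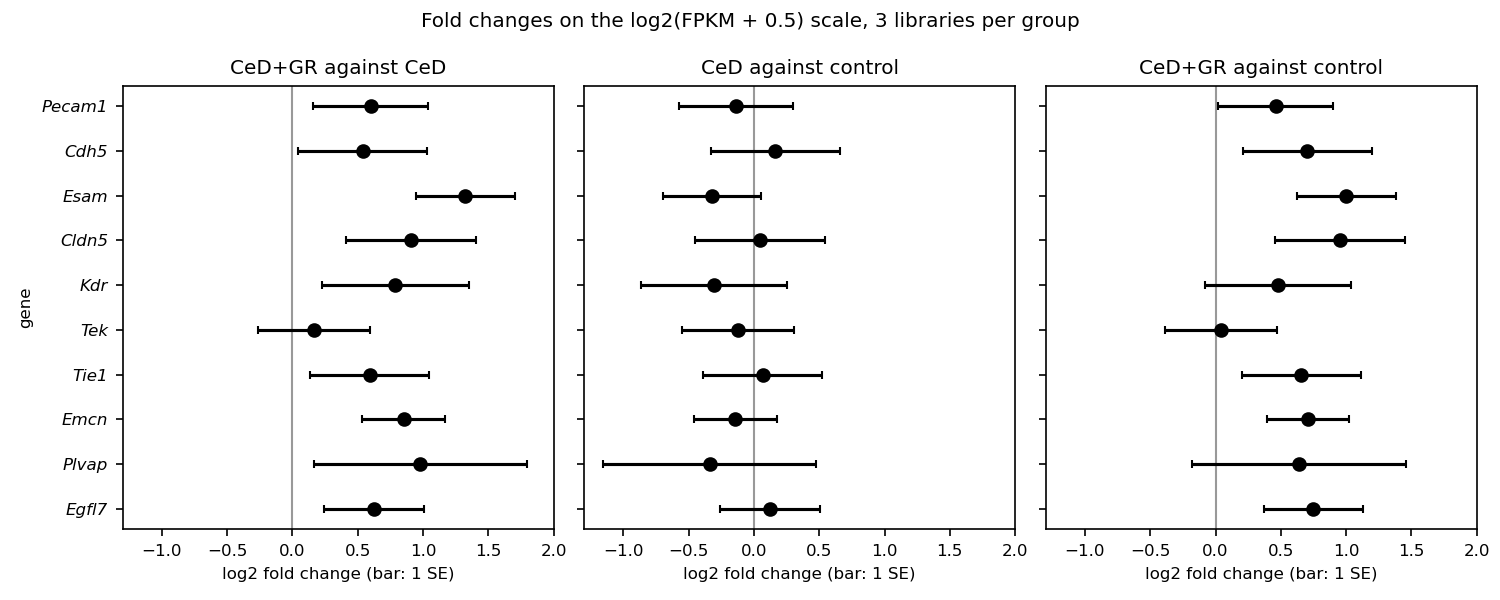
Log2 fold change of each gene on the log2(FPKM + 0.5) scale in the 3 comparisons, with bars of 1 SE from the fit over all 9 libraries. In CeD+GR against CeD and against control all 10 points lie above 0, and in CeD against control every bar crosses 0.

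The comparison of CeD with control asks how the challenged model differs from wild type. For none of the 10 genes was the difference larger than its standard error. Of the 10, 4 had a positive and 6 a negative log2 fold change, from -0.34 for Plvap to 0.16 for Cdh5 (50.4% of all tested genes positive). The median was -0.13 (median of all tested genes 0.0024). None passed in limma (0 of 10, beside 0% of all tested genes), 0 had an unadjusted p under 0.05 (beside 0.701%), and limma-voom had 0. In all 10 the groups overlapped, beside 2.2% of tested genes that were higher and 2.49% that were lower without overlap. The median turned to 0.17, 0.07 and 0.04 without control 1, CeD 2 and CeD 3, so no direction can be given. The standard errors of 0.32 to 0.82 leave room for changes in either direction.

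Against control, CeD+GR again gave positive values for all 10 genes, but this comparison shares its CeD+GR libraries with the first and is no second sight of it. Log2 fold changes ran from 0.04 for Tek to 1.0 for Esam, with a median of 0.68 (median of all tested genes -0.0024, and 49.7% positive). None passed in limma (0 of 10, beside 0% of all tested genes), 1 had an unadjusted p under 0.05 (Esam, beside 2.72%, or 1.31% counting higher genes alone), and limma-voom had 2 (beside 2.28%). Cldn5 and Emcn did not overlap between the groups, beside 2.54% of tested genes that were higher. Without control 2 the fold change of Kdr turned from 0.48 to -0.02, and without CeD+GR 1 that of Tek turned to -0.23.

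Promoters of the genes were looked up because several of them varied together. RefSeq (GRCm38.p6) held windows for 6 of the 10, Egfl7, Emcn, Tek, Tie1, Kdr and Cldn5, in 8 windows of 250 bases upstream of a RefSeq start. These starts can lie inside the gene spans given above. All 3 Egfl7 windows and most of the Tie1 window lie within the spans of their own genes. Factors of the ETS family, such as Erg and Fli1, are known regulators of endothelial genes and bind a GGAA core. The letters AGGAAG (or CTTCCT on the other strand) were found in 4 of the 8 windows, belonging to Egfl7, Emcn and Tie1, and in 29.5% of all 32851 windows of the table. The bare core GGAA (or TTCC), which AGGAAG contains, was in 7 of 8 and in 93.4% of all, and was not in the Cldn5 window. The GATA core AGATAA (or TTATCT) was in 0 of 8, and in 9.99% of all. A match is a run of letters and not a shown binding site. Tie1, Emcn and Egfl7, which hold a match, and Cldn5, which holds none, are printed 5′ to 3′ up to the base before the start, with AGGAAG or CTTCCT in capitals, at chr4:118489850-118490099 (minus strand), chr3:137340828-137341077, chr2:26583615-26583864 (the second of 3 Egfl7 windows) and chr16:18776597-18776846 (plus strand).
Tie1: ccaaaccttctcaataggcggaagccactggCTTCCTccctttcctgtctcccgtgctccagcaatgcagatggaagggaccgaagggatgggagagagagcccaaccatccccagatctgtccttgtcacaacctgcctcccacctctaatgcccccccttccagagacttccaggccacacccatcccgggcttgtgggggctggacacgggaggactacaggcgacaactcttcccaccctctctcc
Emcn: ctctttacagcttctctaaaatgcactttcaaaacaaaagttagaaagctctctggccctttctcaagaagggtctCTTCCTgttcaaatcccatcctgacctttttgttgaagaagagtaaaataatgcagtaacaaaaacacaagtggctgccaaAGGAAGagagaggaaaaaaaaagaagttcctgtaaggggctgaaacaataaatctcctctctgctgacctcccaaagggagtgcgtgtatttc
Egfl7: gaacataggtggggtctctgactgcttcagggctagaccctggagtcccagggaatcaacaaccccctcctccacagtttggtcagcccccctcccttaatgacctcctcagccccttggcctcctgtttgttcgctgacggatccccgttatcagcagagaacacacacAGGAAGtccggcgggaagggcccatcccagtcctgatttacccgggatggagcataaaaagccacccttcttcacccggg
Cldn5: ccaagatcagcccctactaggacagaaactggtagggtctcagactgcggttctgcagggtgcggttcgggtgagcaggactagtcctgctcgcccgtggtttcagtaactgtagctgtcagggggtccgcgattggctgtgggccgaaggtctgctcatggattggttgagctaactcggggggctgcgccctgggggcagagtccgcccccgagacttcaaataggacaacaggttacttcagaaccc
The line for Cldn5 therefore has no capitals.

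Other genes of the same vessels were read from lists of endothelial and pathway genes, and tissue makeup from lists of cell type markers. Over all 21 lists, 161 tested entries, limma called 0 genes in each of the 3 comparisons. At an unadjusted p under 0.05 there were 7 entries in CeD+GR against CeD, 1 in CeD against control and 7 in CeD+GR against control, which is 4.35%, 0.621% and 4.35% of entries beside 2.89%, 0.701% and 2.72% of all tested genes. Of the other pan-endothelial genes, 17 of 19 tested were positive in CeD+GR against CeD, with a median of 0.48, and 19 of 19 against control, with a median of 0.55. Against CeD 0 had an unadjusted p under 0.05 and against control 1, Cd34, a sialomucin of vessel and progenitor cells. The 2 genes with a negative value against CeD were the most abundant of the list, Cav1 at -0.46 (SE 0.48) and Mcam at -0.28 (SE 0.34). The summed FPKM of the list overlapped, at 27.6 to 53.8 in control, 35.9 to 64.4 in CeD and 41.9 to 69.9 in CeD+GR. In 12 of the 19 the replicate 1 libraries lay above replicates 2 and 3 of control and CeD, and in 11 of the 19 CeD+GR 2 and CeD+GR 3 did, beside 19.5% and 9.09% of all tested genes. Nos3, the endothelial nitric oxide synthase, stood at 0.705, 0.132 and 0.244 FPKM in control, at 0.841, 0.286 and 0.441 FPKM in CeD and at 0.547, 2.23 and 1.05 FPKM in CeD+GR. Ecscr, a small endothelial surface protein, was high in CeD+GR 3 at 6.74 FPKM and between 0.917 and 2.0 FPKM in the others.

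Of the ligands and co-receptors of the VEGF and angiopoietin system none passed. Of 12 listed genes 8 were tested, and 5 were positive in CeD+GR against CeD, with a median of 0.21. Vegfa, the ligand of Kdr and the most abundant of the list, stood at 19.2 to 35.9 FPKM in control, 20.5 to 27.6 FPKM in CeD and 24.1 to 34.3 FPKM in CeD+GR, with overlap between all groups. Flt1, VEGF receptor 1, followed the mean profile of the 10 genes. It stood at 2.51, 0.840 and 1.40 FPKM in control, 2.10, 0.797 and 0.998 FPKM in CeD and 1.91, 1.58 and 2.18 FPKM in CeD+GR. The Tek ligands Angpt1, Angpt2 and Angpt4 did not reach a mean of 0.5 FPKM. Nrp2, a co-receptor also found outside blood endothelium, had a log2 fold change of -0.62 (SE 0.31) in CeD+GR against CeD, and Vegfb stood highest in CeD+GR 3, at 18.3 FPKM.

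Of the endothelial transcription factors, 7 of 8 tested were positive in CeD+GR against CeD, with a median of 0.18, and 5 of 8 against control, with a median of 0.05. Klf2, a factor induced by blood flow, stood in CeD+GR 1 to 3 at 4.40, 13.5 and 8.15 FPKM, against 4.40, 3.04 and 4.07 FPKM in the CeD libraries, and Sox18 at 2.79, 3.72 and 5.06 FPKM against 3.67, 1.76 and 2.06 FPKM. In control 1 to 3 Klf2 stood at 6.19, 2.33 and 5.97 FPKM and Sox18 at 3.70, 1.10 and 1.06 FPKM. Erg had a fold change of 0.51 (SE 0.38) against CeD. Klf4, the most abundant of the list, was the negative one, at -0.28 (SE 0.26). Foxo1, Ets1, Ets2 and Fli1 gave 0.02, 0.09, 0.12 and 0.24, each less than its standard error. For Notch and ALK1 signalling the median in CeD+GR against CeD was 0.0036, 5 of 10 being positive. Junction partners, most of which the epithelium also expresses, had a median of -0.10 with 3 of 12 positive. Of these 12, 3 were lower without overlap and 0 higher, beside 3.04% and 3.01% of tested genes. Gja1 gave -0.97 (SE 0.35), and Gja4 went the other way at 0.85 (SE 0.52). Gja1 alone had an unadjusted p under 0.05 (limma), beside 2.89% of tested genes.

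Markers of mural cells, which wrap the vessel, and of smooth muscle had mostly negative values. In whole duodenum the smooth muscle list does not tell vessel walls from other muscle, so no loss of vessel cover is read from it. Of 7 tested mural cell markers 1 was positive in CeD+GR against CeD, with a median of -0.28. Of 9 smooth muscle markers 1 was positive, with a median of -0.81. Smooth muscle sums were 429, 669 and 681 FPKM in control, 367, 731 and 1428 in CeD, and 177, 548 and 687 in CeD+GR. CeD 3 was the highest library for these sums and CeD+GR 1 the lowest, and the groups overlap. The positive mural marker was Pdgfrb, at 0.30 (SE 0.44). Cspg4 and Notch3 gave -0.08 (SE 0.29) and -0.01 (SE 0.51), and Ndufa4l2 and Kcnj8 -0.28 (SE 0.43) and -0.62 (SE 0.50). Abcc9 and Rgs5 gave -1.22 (SE 0.53) and -1.58 (SE 0.67). Rgs5, a pericyte and vascular smooth muscle gene, stood at 44.4, 89.2 and 102 FPKM in control, at 47.8, 103 and 220 FPKM in CeD and at 16.0, 73.7 and 32.8 FPKM in CeD+GR. CeD 3 was thus the highest library for Rgs5 and CeD+GR 1 the lowest.

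Markers of other cells moved with the endothelial genes in some libraries and not in others. The mean log2 level of 8 fibroblast markers was 3.26, 1.92 and 2.09 in control 1 to 3. It was 3.69, 2.32 and 3.00 in CeD 1 to 3, and 2.82, 2.71 and 2.90 in CeD+GR 1 to 3. Replicate 1 was thus the highest in control and in CeD, and the CeD+GR libraries were alike. In CeD+GR against CeD 2 of 8 were positive, with a median of -0.18, and against control 7 of 8, with a median of 0.32. Of the 5 Paneth cell markers, 5 of 5 had all 3 replicate 1 libraries above replicates 2 and 3 of control and CeD, but their sums were low in CeD+GR 2 and CeD+GR 3, at 89.2 and 80.5 FPKM. Lymphatic endothelium markers, of which 5 of 7 were tested, were above those libraries in replicate 1 for 4 of 5, with sums of 4.42 to 17.4 FPKM in control, 3.36 to 15.4 FPKM in CeD and 6.13 to 13.9 FPKM in CeD+GR. Platelet markers summed to 1.64 to 2.70 FPKM in control, 2.27 to 2.40 FPKM in CeD and 3.22 to 8.39 FPKM in CeD+GR, with Treml1 at 0 in every library, and control 1, high for the endothelial genes, was the lowest for them. Only 2 of these 8 markers were tested. Their mean log2 level overlapped, at 0.05 to 0.54 in control, 0.32 to 0.51 in CeD and 0.39 to 0.91 in CeD+GR. Pf4, 1 of the 2, was lowest in CeD+GR 2, at 0.176 FPKM. Erythroid markers, a measure of blood in the tissue, were positive for 4 of 4 tested genes in CeD+GR against CeD, with a median of 0.72, and for 4 of 4 against control, with a median of 1.52. Of these 0 passed in limma, and at an unadjusted p under 0.05 there were 0 against CeD and 2 against control, Hba-a1 and Hba-a2. Erythroid sums were 25.3, 7.30 and 11.1 FPKM in control, 18.3, 41.9 and 9.59 FPKM in CeD and 19.0, 74.5 and 35.4 FPKM in CeD+GR. CeD+GR 2 was the highest library and CeD 2, low for the endothelial genes, came next. Leukocyte markers summed to 56.5 to 79.8, 42.5 to 61.5 and 34.6 to 72.8 FPKM, and CeD+GR 3, the library with the highest mean of the 10 genes, was the lowest for them. The part of these cells, and of the pancreatic, gastric and adipose transcripts, in the endothelial levels was not tested. Without CeD 1 and CeD+GR 3 the median of the 10 genes in CeD+GR against CeD was 1.04, with 10 of 10 positive, and without CeD+GR 2 it was 0.60, with 10 of 10 positive.

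**Figure D5:**
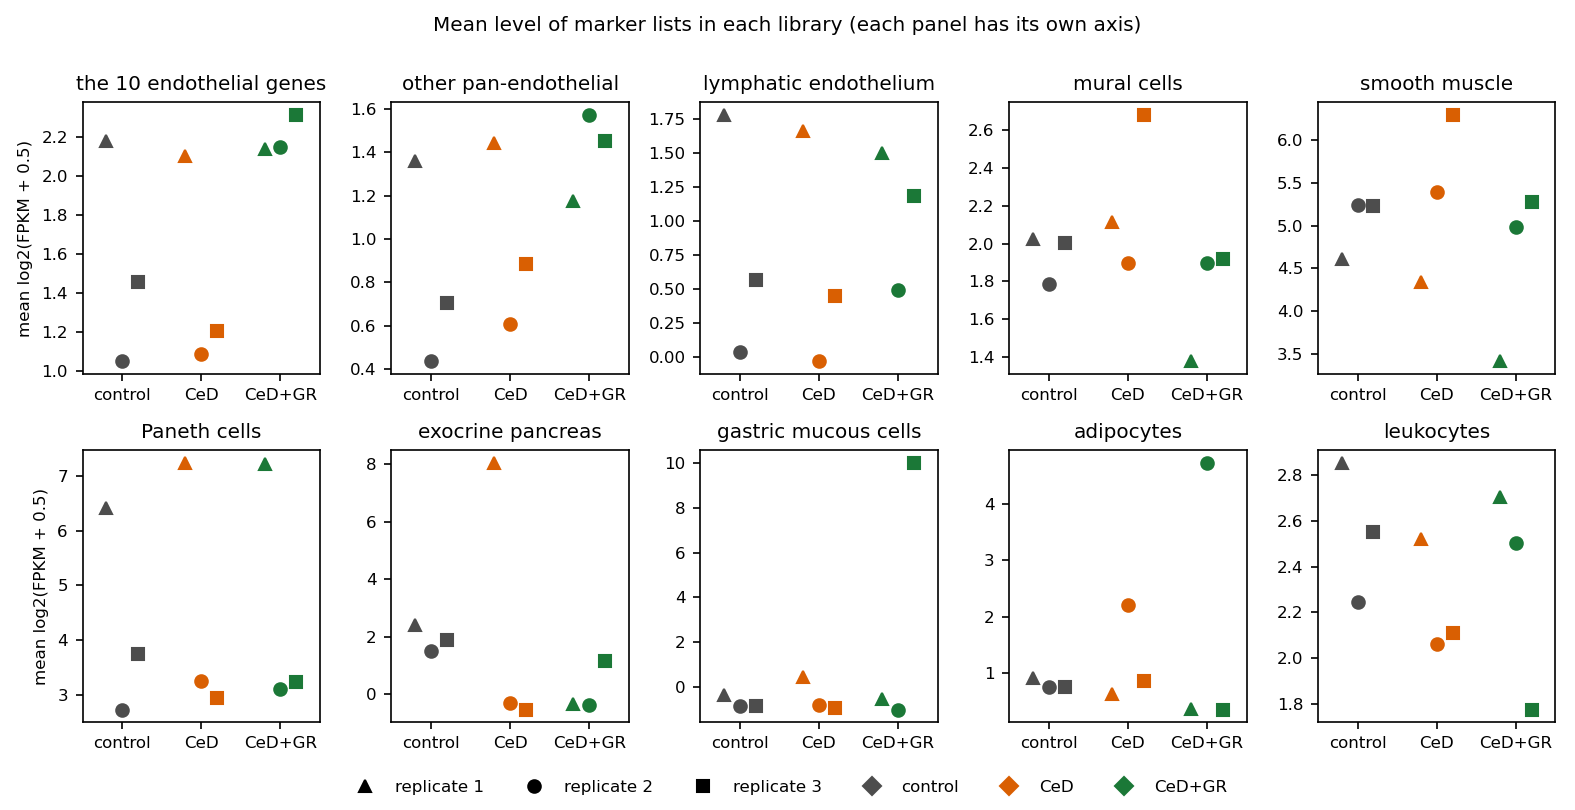
Mean log2(FPKM + 0.5) of the tested genes of 10 lists in each library, each panel on its own axis, with symbol shape for the replicate number and colour for the group. For the 10 genes and the other pan-endothelial genes the replicate 1 and CeD+GR libraries are the high ones, whereas CeD+GR 2 is low for the lymphatic list; the pancreas, gastric and adipocyte panels each have 1 library far above the rest, CeD 1, CeD+GR 3 and CeD+GR 2.

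Among all tested protein-coding genes other than the 10, the 10 with the profile nearest to the mean of the endothelial genes over the 9 libraries were Fgd5, S1pr1, Lifr, Meox1, Flt1, Ly6c1, Sik1, Spata5, Mpp6 and Sema3f. Their mean absolute difference from that profile ran from 0.091 for Fgd5 to 0.157 for Sema3f, against a median of 0.533 over the 12381 protein-coding genes compared. Fgd5 stood at 1.32, 0.261 and 0.631 FPKM in control, at 1.14, 0.254 and 0.270 FPKM in CeD and at 1.04, 1.03 and 1.18 FPKM in CeD+GR. S1pr1, a sphingolipid receptor of endothelial cells and lymphocytes, stood at 3.41, 0.942 and 1.62 FPKM, at 3.06, 1.09 and 0.837 FPKM and at 3.12, 3.25 and 3.51 FPKM. Both have 3 similar CeD+GR libraries and a replicate 1 library at the same height in the other groups. These genes were chosen for their likeness, so it is a description.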

How the data were processed

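Total RNA of mouse duodenum, depleted of ribosomal RNA per the labels' protocols, was sequenced in 9 libraries. The authors deposited 1 table of FPKM per gene; per the submitters' processing notes, the tools were fastp, HISAT2 2.0.5, featureCounts 1.5.0-p3 and DESeq2 1.20.0, with build mm10. Reads per gene were recovered from the FPKM steps and gene lengths, whole within 0.1 reads.

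Values were fitted as log2(FPKM + 0.5), so fold changes of low genes are understated, with limma 3.58.1 (R 4.3.3). The fit used group means over all 9 libraries, on genes whose mean reached 0.5 FPKM, and Benjamini-Hochberg adjustment over 14683 genes at 0.05. For a single gene, an exact permutation test of 3 against 3 libraries cannot go below 0.1 and was not used. The fit was tested on simulated data.

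The members and lists were chosen with earlier results of these data known. Besides the 10 genes, named genes are up to 3 per list with the smallest unadjusted p, the highest marker of a list in 1 library, the 10 nearest profiles, and genes overlapping a member. Alternatives were other pseudocounts, filters, scalings, array weights, limma-voom, a replicate block and left-out libraries.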

Additional observations from a re-analysis of the deposited data

How the results depend on the processing

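In each of the 3 comparisons 0 of the 10 genes passed under all 22 alternatives. The median log2 fold change of CeD+GR against CeD ran from 0.54 to 1.01 with 1 library left out and from 0.61 to 1.06 otherwise, the highest with replicates 2 and 3 only. Against control these ranges were 0.41 to 1.01 and 0.56 to 0.99. For CeD against control they were -0.41 to 0.17 and -0.41 to -0.10, and the sign turned without control 1 (0.17), CeD 2 (0.07) and CeD 3 (0.04). Of 217 single-gene values per comparison, 2, 23 and 6 had the other sign in CeD+GR against CeD, CeD against control and CeD+GR against control. A mean of at least 2 FPKM left 7 of the 10 genes. Median-of-ratios rescaling changed nothing because its factors were equal in all libraries. Scaling to all reads assigned to genes, chosen after seeing the data, gave medians of 0.68, -0.11 and 0.67.

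Pairing by replicate number was looked at through each library's deviations from its group mean over the tested genes. All correlations here are between these deviations, not between the levels of the libraries. Of 9 same-number pairs, 7 correlated above 0.1, all 3 between control and CeD among them. The pairs of CeD+GR 3 with control 3 and CeD 3 did not, at -0.11 and -0.12, and 5 of 9 libraries correlated best with their own number. As not every pair passed, the numbers were not taken to pair the libraries over the 3 groups; control 1 and CeD 1 correlated at 0.712, the highest value. With the replicate block the medians were 0.71, -0.13 and 0.68, with 0 genes passing and 2, 0 and 2 at an unadjusted p under 0.05, beside 5.48%, 1.31% and 4.38% of all tested genes in that fit.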

Other observations

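Genes of artery and vein identity split in CeD+GR against CeD, with 4 of 8 positive and a median of 0.03. Efnb2, an arterial ligand that the epithelium also expresses, stood at 12.3, 14.2 and 18.6 FPKM in CeD and at 10.7, 8.22 and 7.60 FPKM in CeD+GR, without overlap. Rgcc, a capillary gene, stood at 5.25, 2.65 and 2.51 FPKM in CeD and at 7.31, 14.5 and 9.33 FPKM in CeD+GR, also without overlap. Neither passed in limma (adjusted p = 1 for both).

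Genes through which activated endothelium holds leukocytes had a median of 0.38 in CeD+GR against CeD, with 4 of 5 positive. Cx3cl1, the most abundant of the list, was the negative one, at -0.44 (SE 0.28). It stood at 22.5, 40.4 and 40.4 FPKM in CeD and at 31.1, 22.1 and 21.1 FPKM in CeD+GR. Icam1, at 0.49 (SE 0.61), was uneven within CeD+GR, at 2.93, 0.510 and 4.47 FPKM. Madcam1, the gut homing receptor ligand, stood at 1.07, 0.428 and 0.289 FPKM in control, at 0.898, 0.193 and 0.507 FPKM in CeD and at 1.21, 0.707 and 1.53 FPKM in CeD+GR, with overlap between all groups.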
